A study of Mus musculus with 14 samples.

Results

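The metabolic host-gene miRNAs are microRNAs cut from introns of genes of coenzyme A, sterol and mitochondrial metabolism. Here they are the hairpins mmu-mir-103-1, mmu-mir-103-2 and mmu-mir-107 (introns of the pantothenate kinase genes Pank3, Pank2 and Pank1), mmu-mir-33 (intron of Srebf2) and mmu-mir-378a (intron of Ppargc1b). They were chosen by name and host gene, and all 5 had a row among the 539 hairpins of the authors' deposited table. The material was small RNA of exosomes, which are small vesicles released by cells, from CD11b+F4/80+ adipose tissue macrophages (ATMs) of C57BL/6 mice. The ATMs were held for 72 h in IMDM with 10% exosome-free serum, and the vesicles were then spun down by ultracentrifugation. The labels give 7 libraries from obese and 7 from lean animals and name no diet, allele or other treatment. The age labels begin at 24 weeks in every library, and their upper end steps by 1 week per library from 26 to 32 in the obese group and on from 33 to 39 in the lean group. If taken at their word, age and obesity cannot be told apart. The labels do not say that libraries are from separate animals, so p-values cover only the spread among these libraries, which may be technical.

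Intronic miRNAs are usually made from the same primary transcript as their host gene, so that a miRNA and the enzyme or regulator around it can be expressed together. Pantothenate kinases catalyse the first step of coenzyme A synthesis, and miR-103 and miR-107 are known to lower insulin sensitivity, with caveolin-1 as a target in adipocytes. Srebf2 encodes the sterol-sensing transcription factor SREBP-2, and miR-33 represses the cholesterol exporter Abca1, a route by which macrophages unload cholesterol. Ppargc1b encodes PGC-1β, a coactivator of mitochondrial genes, and miR-378a is known from oxidative metabolism and from macrophage responses to interleukin-4.

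The mature sequences show which of these hairpins can be separated by reads. They are from a set of RefSeq (GRCm38.p6) sequences in which 4 of the 5 hairpins had a match. The capitals mark the seed, bases 2 to 8, with which a miRNA pairs to its targets.
miR-103-3p: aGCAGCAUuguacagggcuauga
miR-107-3p: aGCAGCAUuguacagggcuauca
miR-33-5p: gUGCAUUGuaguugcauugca
miR-33-3p: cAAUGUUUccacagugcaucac
The hairpins mir-103-1 and mir-103-2 give the same miR-103-3p. The 3p arm of mir-107 has the same seed and 1 base difference over 23 bases, G22C, with miR-103-3p first and positions counted from 1 at the 5′ end. The first 21 bases are therefore identical, and a read that ends before base 22 matches all 3 hairpins. No other mature miRNA among the sequences searched carries the seed of miR-103-3p, and none shares that of miR-33-5p. That set held only 4 of the 5 hairpins, so it was not complete, and carriers of these seeds outside it were not looked for.

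The whole hairpins are printed because they show where the Pank copies do differ. The capitals mark the mature arms.
mir-103-1: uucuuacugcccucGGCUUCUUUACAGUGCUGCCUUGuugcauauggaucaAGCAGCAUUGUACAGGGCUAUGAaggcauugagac
mir-103-2: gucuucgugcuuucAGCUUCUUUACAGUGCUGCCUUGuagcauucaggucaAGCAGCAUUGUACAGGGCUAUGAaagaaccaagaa
mir-107: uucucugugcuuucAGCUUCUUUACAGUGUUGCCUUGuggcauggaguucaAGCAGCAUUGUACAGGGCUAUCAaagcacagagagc
The 5p arms also differ by 1 base each. From mir-103-1 to mir-103-2 the change is G1A, and from mir-103-2 to mir-107 it is C16U, counted from the 5′ end of the arm. Loops and flanks, which are not part of the mature miRNAs, hold the other differences. None of the 4 hairpins with a sequence shares a stretch of 20 bases with a spliced transcript of a gene other than a miRNA in GENCODE M21.

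All 5 hairpins lie on the strand of their host and overlap no exon of a host transcript that spans them. On GRCm38 (GENCODE M21), mir-103-1 (ENSMUSG00000065553.1) is at bases 35782396 to 35782481 of chromosome 11, plus strand. The hairpin mir-103-2 (ENSMUSG00000065563.1) is at 131288052 to 131288137 of chromosome 2, plus strand, and mir-107 (ENSMUSG00000065594.1) at 34820687 to 34820773 of chromosome 19, minus strand. Each of the Pank-hosted hairpins sits in intron 5 of 6 of the principal transcript of its host, the introns being 1740 bases long in Pank3, 5801 in Pank2 and 7282 in Pank1. The hairpin mir-33 (ENSMUSG00000065465.1) is at 82198122 to 82198190 of chromosome 15, plus strand, in intron 16 of 18 of Srebf2. The hairpin mir-378a (ENSMUSG00000105200.1) is in intron 1 of 11 of Ppargc1b on chromosome 18, and 1 further annotated miRNA gene, Gm25301, overlaps it on the opposite strand. The sources used here do not give whether the authors counted with strand, so mir-378a is uncertain in that respect.

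The deposited values are 1 comparison of the groups, with no value of any single library, so neither levels per group, their spread nor depth can be given. The table does not name the numerator of its fold changes. A positive sign here means the side of mir-155, which a publication on these exosomes (outside knowledge) reports as higher in the obese group. The myeloid marker list had a row for 7 of 7 names. Their mean log2 expression ran from 4.17 (mir-511) to 15.02 (mir-22) in the authors' deposited table, with mir-142a at 9.70 and mir-223 at 7.62. Markers of other cells were in the table too, with the top levels at mir-181a-2 (12.66, lymphocyte), mir-486b (11.84, erythrocyte), mir-192 (10.05, hepatocyte and serum), mir-365-2 (8.78, adipocyte) and mir-126a (6.46, endothelial) on the same deposited log2 scale. The lowest rows of these lists, in the same order, were mir-150 (3.24), mir-144 (4.15), mir-122 (2.15), mir-145a (0.22) and mir-126b (5.91) on that scale. Of the 4 striated muscle names only mir-133a had rows, which reached 2.27 on that scale in the authors' deposited table. Epithelial names reached 3.62 there. Of the 7 myeloid rows 2 were called, with opposite signs, mir-155 (4.41) and mir-511 (−4.70). In the lymphocyte list, 4 rows (miR-181a, miR-181b) were called on the positive side. The remaining lymphocyte row, mir-150, was not called (0.59, adjusted p = 0.910 by limma). In the adipocyte and mesenchymal list mir-365-2 was called on the negative side, while 5 of its 7 rows were positive, the copy mir-365-1 (0.98, adjusted p = 0.591) among them. The part of other cells in the values below was not tested.

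None of the 5 metabolic host-gene miRNAs passed at an adjusted p under 0.05 in the limma test of the authors' deposited table, in which 5.57% of all hairpins (30 of 539) passed, 2.04% on the positive and 3.53% on the negative side. None passed an unadjusted p of 0.05 either, where 17.6% of all hairpins did. All 5 log2 fold changes were positive in the authors' deposited table, with a median of 1.09 beside 0.09 over all 539 and 0.34 over the 180 most abundant hairpins. Positive values made up 52.7% of all hairpins and 67.8% of the 180 most abundant, among which 4 of the 5 lie. Recentring by the 0.34 of the abundant hairpins left 4 of the 5 positive and turned mir-378a. The 5 hairpins stand for 4 miRNAs, since the 2 copies of mir-103 give the same mature 3p sequence.

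**Figure D1:**
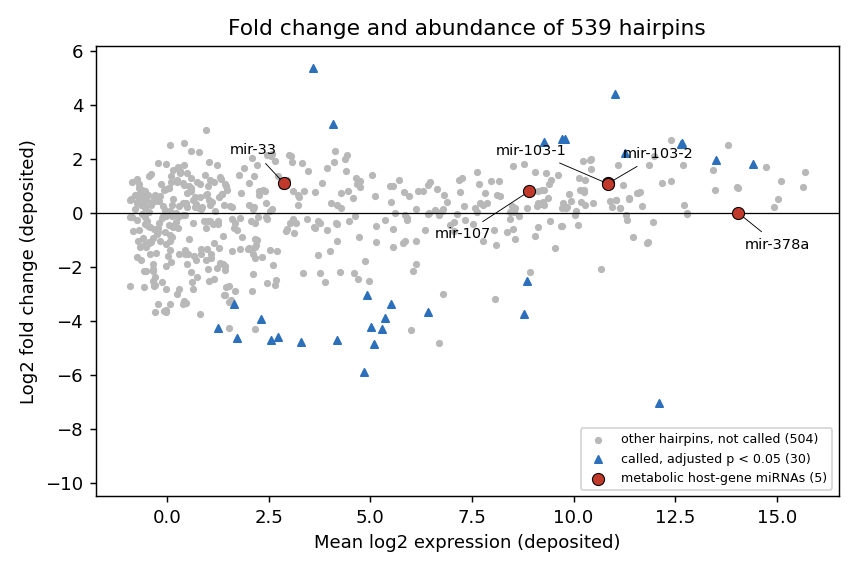
Each point is 1 of 539 hairpins, with the deposited mean log2 expression on the x axis and the deposited log2 fold change on the y axis. Blue triangles are the 30 hairpins with an adjusted p under 0.05, and red points are the 5 metabolic host-gene miRNAs, of which mir-103-1, mir-103-2, mir-107 and mir-33 lie near 1 and mir-378a lies at 0.02.

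The order of abundance ran from mir-378a through the copies of mir-103 and mir-107 to mir-33. The authors' deposited table gives mir-378a a mean log2 expression of 14.04, rank 9 of 539. In that authors' deposited table the copies mir-103-2 and mir-103-1 stood at 10.86 and 10.85, ranks 49 and 50. The hairpin mir-107 was at 8.91, rank 97, and mir-33 at 2.88, rank 248. These deposited levels are means over both groups and are not known to be per length, but the hairpins differ little in length (66 to 87 bases). The spread of a level over libraries is unknown, so no test of one level against another was possible. The 2 copies of mir-103 differ by 0.0074, and no other neighbours in this order are closer than 1.94 on the log2 scale.

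The Pank-hosted hairpins, sources of miR-103 and miR-107, had deposited log2 fold changes of similar size. The authors' deposited table puts mir-103-2 at a log2 fold change of 1.11 (2.15-fold), adjusted p = 0.395. Dividing by its deposited t gives a standard error of 0.65 and a 95% interval from −0.26 to 2.47. For its copy mir-103-1 the authors' deposited table has 1.09 (2.12-fold), standard error 0.65, 95% interval −0.28 to 2.45 and adjusted p = 0.396. All 3 intervals of this family include 0. By the authors' deposited table, mir-107 had a log2 fold change of 0.81 (1.75-fold) with a standard error of 0.54, a 95% interval from −0.33 to 1.95 and an adjusted p of 0.472. The difference between mir-103-2 and mir-107 is 0.30 on the log2 fold change scale. It has no test, since the covariance of the 2 rows needs values per library. On the fold scale, the intervals extend to 5.54-fold for mir-103-2 and 3.85-fold for mir-107 on the positive side, and to 1.19-fold and 1.25-fold on the negative side.

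The copies of mir-103 had nearly equal values. Their log2 fold changes differ by 0.022 in the authors' deposited table. Another 26 miRNAs have exactly 2 numbered hairpins there, and the median difference between their copies was 0.12. Of these pairs, 12 differed by less than 0.1, such as mir-16 (0.0021) and let-7c (0.056), while the copies of mir-29b differed by 3.12 and those of mir-365 by 4.73. The pair mir-103 ranked 6 of 27 from the smallest difference. The sources used here do not give how reads matching several hairpins were assigned. A row of mir-103-1 or mir-103-2 therefore cannot be read as the output of Pank3 or Pank2, and, depending on that assignment, mir-107 could hold reads of miR-103 that stop short of base 22.

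**Figure D2:**
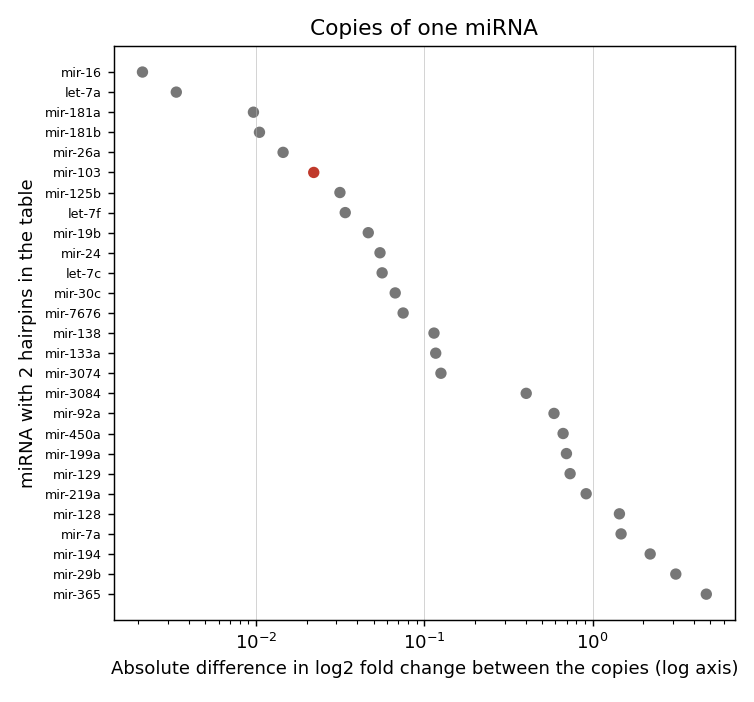
Each row is 1 of 27 miRNAs with 2 numbered hairpins in the table, and the x axis (logarithmic) is the absolute difference between the deposited log2 fold changes of the 2 hairpins. The pair mir-103 (red) lies at 0.022, and the widest pair, mir-365, at 4.73.

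The Srebf2 intronic mir-33 had the largest deposited value of the 5 and the least precise. The authors' deposited table has it at a log2 fold change of 1.11 (2.16-fold), adjusted p = 0.714. Its standard error of 1.28 gives a 95% interval from −1.59 to 3.81, that is from 3.01-fold on the negative side to 14.03-fold on the positive side. At this standard error a difference of several-fold in either direction was not detectable. Of 78 hairpins within 1 log2 unit of its level, 25 had a larger standard error. The values of mir-33 and mir-103-2 differ by 0.0034 in log2 fold change while their standard errors are 1.28 and 0.65.

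The Ppargc1b intronic mir-378a was the most abundant of the 5 and had the value nearest to 0. By the authors' deposited table its log2 fold change was 0.02 (1.02-fold, adjusted p = 0.986), and only 10 of 539 hairpins had a smaller absolute t. Its standard error of 0.55 gives a 95% interval from −1.12 to 1.17. Differences above 2.25-fold on the positive side and above 2.18-fold on the negative side lie outside this interval. Its sign depends on centring, since the value was −0.07 after recentring by the median of all hairpins (0.09) and −0.32 after recentring by that of the 180 most abundant. Of the 10 other hairpins within 1 log2 unit of its level, all had positive log2 fold changes, with a median of 1.30 in the authors' deposited table, and 2 were called. The value of mir-378a lay below all 10 of them. Whether it differs from them was not tested, for lack of values per library.

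**Figure D3:**
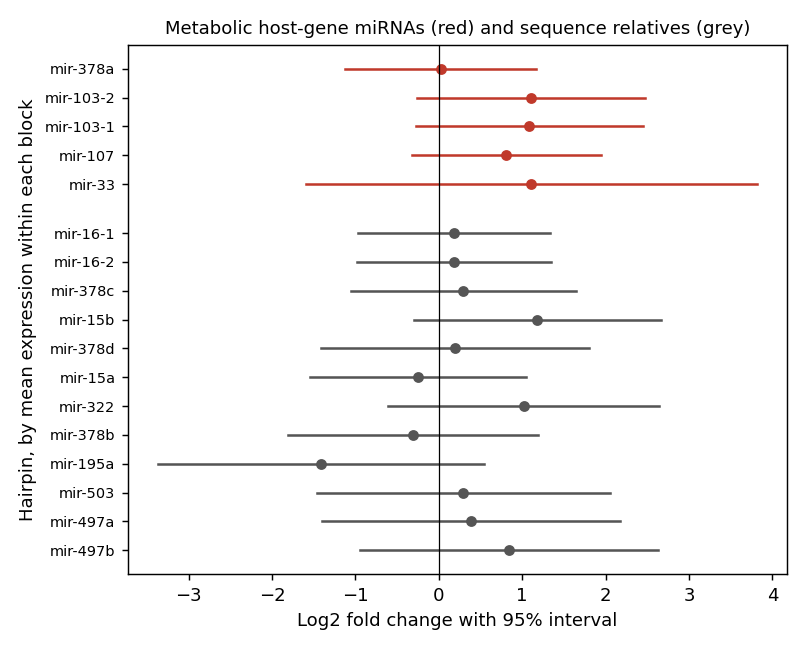
Points are deposited log2 fold changes and lines their 95% intervals, for the 5 metabolic host-gene miRNAs (red) and 12 hairpins related by sequence or name (grey), each block ordered from high to low mean expression. Every interval includes 0, and that of mir-33, from −1.59 to 3.81, is the widest of the red block.

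The precision of each row sets what could have been called. The smallest absolute t among the 30 called hairpins was 3.53. At its own standard error, mir-107 would have needed a log2 fold change of 1.91 (3.75-fold) for that t, and mir-378a 1.93 (3.80-fold). The copies of mir-103 would have needed 2.29 (4.89-fold) and mir-33 4.53 (23.2-fold). The deposited values reached 48.4% of the needed size for mir-103-2, 47.4% for mir-103-1, 42.4% for mir-107, 24.5% for mir-33 and 1.15% for mir-378a. By standard error, mir-107 and mir-378a ranked 26 and 27 from the smallest of 539, the copies of mir-103 ranked 63 and 64, and mir-33 ranked 431. So 4 of the 5 rows were among the more precise of the table, and mir-33 was not.

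**Figure D4:**
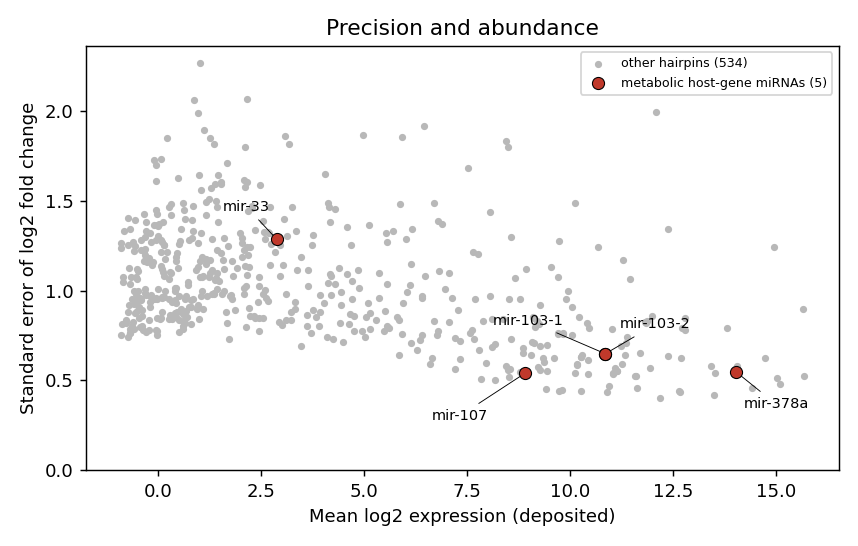
The x axis is the deposited mean log2 expression and the y axis the standard error of the log2 fold change, for 539 hairpins. The hairpins mir-378a and mir-107 lie at 0.55 and 0.54, the copies of mir-103 at 0.65 and mir-33 at 1.28.

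Hairpins with values most like those of the 5 were taken as the 3 nearest in log2 fold change within 1 log2 unit of mean expression, over the single comparison that the table holds. For both copies of mir-103 these were mir-99a (1.05), mir-351 (1.24) and let-7g (1.28) in the authors' deposited table. For mir-107 they were mir-30c-1 (0.80), mir-674 (0.84) and mir-30c-2 (0.87), again as log2 fold changes of the authors' deposited table. For mir-33 they were mir-194-1 (1.11), mir-7043 (1.13) and mir-381 (1.0), from the same authors' deposited table. Nearest to mir-378a the authors' deposited table has 0.24 for mir-21a, 0.54 for mir-22 and 0.86 for mir-151, the host-gene miRNA mir-151 being the most precise of these with a standard error of 0.42. None of these neighbours was called, which follows largely from choosing them by fold changes near those of uncalled rows. Around the copies of mir-103, 31 of 39 hairpins of like abundance were positive with a median of 0.50, and around mir-107 34 of 51 with a median of 0.25. Around mir-33, 35 of 78 were positive and the median was −0.22. The deposited values of mir-103, mir-107 and mir-33 thus lay above the median of their abundance range, and that of mir-378a below.

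Relatives by sequence or name were the members of the miR-15/16 group, cell-cycle regulators whose seed is that of miR-103 and miR-107 moved by 1 base, and the further mir-378 hairpins. The shift is visible in the mature forms, with bases 2 to 8 in capitals.
miR-103-3p: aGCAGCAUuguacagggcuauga
miR-15b-5p: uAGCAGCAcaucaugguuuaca
miR-16-5p: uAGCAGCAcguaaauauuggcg
miR-322-5p: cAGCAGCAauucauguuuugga
This shifted seed is carried by 10 mature miRNAs among the RefSeq sequences searched, a set that was not complete. Of the authors' deposited table, 7 rows belong to them. None of the 7 was called in the authors' limma test, also none at an unadjusted p of 0.05, and their median log2 fold change was 0.18 with 5 of 7 positive, or 3 after recentring by 0.34. Largest among them in the authors' deposited table stood mir-15b, hosted by Smc4, at 1.18 (adjusted p = 0.395), followed by mir-322 at 1.02 (adjusted p = 0.529). Lowest in the authors' deposited table was mir-195a at −1.41 (adjusted p = 0.465), and the most abundant, mir-16-1, was at 0.18 (adjusted p = 0.929). The values of the 7 thus ran from −1.41 to 1.18, and every 95% interval among them includes 0.

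The mir-378 hairpins other than mir-378a had deposited values near 0 as well. The authors' deposited table puts mir-378c at 0.30 (adjusted p = 0.896), mir-378d at 0.19 (adjusted p = 0.937) and mir-378b at −0.31 (adjusted p = 0.903) in log2 fold change. All 3 were negative after recentring by 0.34. Mean log2 expression, again from the authors' deposited table, was 10.29, 7.57 and 4.48, below the 14.04 of mir-378a. Since these miRNAs resemble each other in sequence, their rows may share reads with mir-378a, which was not tested. Together with mir-503, mir-497a, mir-497b and the miR-15/16 hairpins they make up a list of 12 relatives, of which none was called by limma and none had an unadjusted p under 0.05, beside 5.57% and 17.6% of all hairpins. In this list mir-503, mir-497b and the mir-378 hairpins stand by name, since they are not among the rows found with the shifted seed.

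A list, picked by name, of other miRNAs tied to insulin action, lipid handling or adipocytes had 36 rows. Of these, 4 (11.1%) were called beside 5.57% of all hairpins and 8.89% of the 180 most abundant. Its rows had a median of 7.41 in mean log2 expression, beside 2.34 over the whole table. The list holds mir-155, from which the sign is taken and which earlier work links to this material, so it is no independent evidence of direction. Positive calls of the authors' deposited table were mir-155 at 4.41 (adjusted p = 0.00205) and mir-222, a miRNA studied in adipocyte insulin signalling, at 1.82 (adjusted p = 0.0240). Negative calls of the authors' deposited table were mir-365-2 at −3.75 (adjusted p = 0.0266) and mir-29b-1, of a family that acts on insulin signalling, at −3.66 (adjusted p = 0.0310). Their copies and relatives were not called: by the authors' deposited table mir-365-1 was at 0.98 and mir-29b-2 at −0.54 (adjusted p = 0.591 and 0.896), and on the positive side lay mir-29a with 2.0 and mir-29c with 0.64 (adjusted p = 0.0614 and 0.780). The most abundant of the list, mir-27b, which acts on lipid and adipocyte genes, was at 1.21 (adjusted p = 0.168) there. Of the 36 rows 28 were positive with a median of 0.67, or 23 after recentring by 0.34, when mir-222 was no longer called.

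Other miRNAs within protein-coding hosts came from a list picked by name. The deposited table was not searched for further intronic hairpins, and the listed hosts were not looked up in the annotation. Counts below therefore hold for this list only. It had 25 rows, of which 3 (12%) were called beside the same 5.57% and 8.89%. Positive in the authors' deposited table were mir-149 (host Gpc1) at 3.31 (adjusted p = 0.0112) and mir-140 (host Wwp2) at 2.22 (adjusted p = 0.0310). The negative call of the authors' deposited table was mir-511, in the mannose receptor gene Mrc1, at −4.70 (adjusted p = 0.0148), while mir-211, in the ion channel gene Trpm1, had −2.43 (adjusted p = 0.165). The most abundant, mir-151, was at 0.86 (adjusted p = 0.297). Positive values numbered 20 of 25 with a median of 0.70, or 18 after recentring by 0.34, when mir-140 was no longer called. This list shares 7 rows with the metabolic one (28.0% of the intronic rows and 19.4% of the metabolic rows) and 2 with the relatives (8.0% and 16.7%). Neither list was tested as a set against the others.

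**Figure D5:**
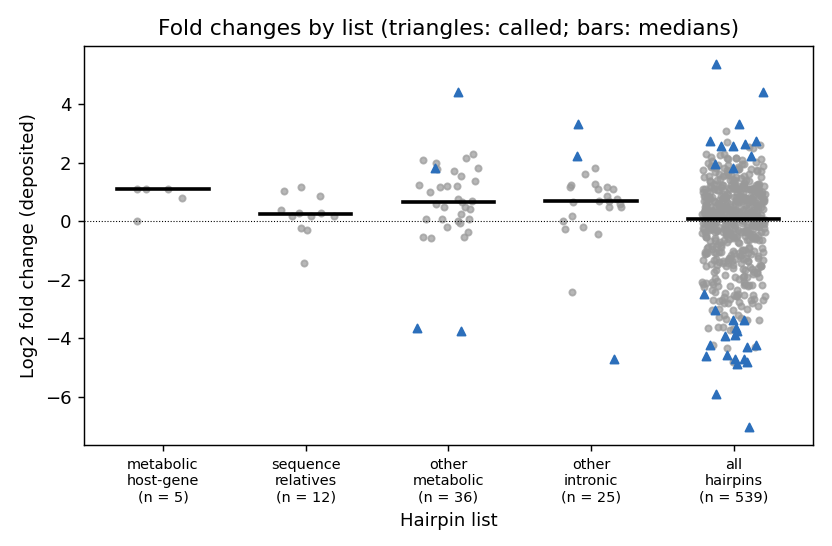
Deposited log2 fold changes (y axis) are shown by list, with horizontal position within a list random. The lists are 5 metabolic host-gene miRNAs, 12 relatives by sequence or name, 36 other metabolic and 25 other intronic ones, and all 539 hairpins. Those of 36 and 25 were picked by name. Bars are medians (1.09, 0.24, 0.67, 0.70 and 0.09), and blue triangles are called hairpins, of which the first 2 lists have none.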

How the data were processed

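Exosomal small RNA was compared between 7 obese and 7 lean ATM libraries. Per the submitters' processing notes, limma, edgeR, Novoalign and Trimmomatic 0.30 were used, in roles that are not stated, beside quality reports. Not given in the sources used here are the genome build, annotation, scaling, filters and treatment of reads matching several hairpins. Per the file headers, the authors deposited log2 fold changes and mean log2 expression, a moderated t (a score without fixed range), unadjusted and adjusted p-values, and B, limma's log-odds (natural log) that a row differs. The table has 0 columns for single libraries, so nothing was refitted and depth is unknown.

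The deposited adjusted p equals Benjamini-Hochberg over 539 rows (largest difference 1.46e-14). From t and p, 17.9 degrees of freedom were recovered, and the standard error is the fold change divided by t. B is not a function of absolute t alone: among 538 neighbours by absolute t, 239 fell in B at the higher t. With equal weights and no missing values limma would give none, so group means and SDs were not derived. Functions were tested on simulated data for 539 rows.

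Each named row is a metabolic host-gene miRNA, the most abundant or 1 of the 2 of smallest p per direction of a list, or 1 of 3 most like rows. Outside this rule, mir-150, mir-144, mir-145a, mir-223, mir-378c, mir-378d, mir-29a, mir-29b-2, mir-29c and the copy pairs named were picked with their values in view. The members and lists were chosen with earlier results of these data known. Alternatives were an adjusted p under 0.1, a 2-fold minimum, 2 recentrings, 2 expression minima and 1 row per stem. Python 3.11.15, SciPy 1.17.1 and pandas 2.3.3 were used.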

Additional observations from a re-analysis of the deposited data

How the results depend on the processing

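None of the 5 metabolic host-gene miRNAs and none of the 12 relatives by sequence or name was called under any of the 7 alternatives, all planned. For these rows a 2-fold minimum could only take calls away. The limit of 0.1 was settled by the deposited adjusted p by limma, at least 0.395 in both groups of rows. These settings recompute no p, so their adjusted p repeat the deposited ones. The adjusted p of the 5 ranged from 0.330 to 0.995 over 33 values. The 2 recentrings alone change a fold change, and of their 10 values 2 turned in sign. The sign of mir-378a turned to −0.070 (adjusted p = 0.962) after recentring by the median of all hairpins and to −0.32 (adjusted p = 0.865) after recentring by that of the 180 most abundant; recentring subtracts 0.09 or 0.34, more than its value. The lowest values of the others, after the latter recentring, were 0.77 for mir-103-2, 0.75 for mir-103-1, 0.47 for mir-107 and 0.77 for mir-33. The metabolic list had 7 calls in place of 4 at an adjusted p under 0.1 and 7 with a mean log2 expression of at least 3.32, which tests fewer rows. The intronic list had 5 in place of 3 at an adjusted p under 0.1. Over all hairpins 11 positive and 19 negative calls became 8 and 25 after recentring by 0.34, and 16 and 16 above 3.32. At that minimum mir-33 has no value, and with 1 row per stem mir-103-1 has none. Leaving out libraries was not run, as the table holds no value per library. No paired analysis was possible because single libraries have no columns.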
